A study of Mus musculus with 18 samples.

Results

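The cofilin cycle genes *Cfl1*, *Cfl2*, *Limk1*, *Limk2*, *Ssh1*, *Ssh2* and *Ssh3* were read by symbol from the deposited expression table, and all 7 members were found among its 15329 genes. RNA of the mouse hippocampus was sequenced in 18 libraries, 3 in each of 6 groups that cross genotype with training in the Morris water maze, a pool in which mice learn the place of a hidden platform. WT_Basal and KO_Basal were untrained mice, either wild-type (WT) or with *Ccny* knocked out (KO), WT_OL and KO_OL were mice of the same genotypes after original learning, and WT_RL and KO_RL were mice after original learning followed by reversal learning, in which the platform is moved. All groups were C57BL/6J mice of 8 to 10 weeks of age. The untrained groups had no maze exposure, so learning and the swimming, handling and time that go with it cannot be told apart. The construction of the knockout allele was not given in the sources used here. The labels number the libraries of a group without naming the mice, so the p-values measure the spread between these libraries.

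Cofilin-1 (*Cfl1*) and the muscle-type cofilin-2 (*Cfl2*) bind actin filaments and sever them, which frees actin for new filament growth. The LIM kinases LIMK1 and LIMK2 phosphorylate cofilin near its amino terminus and so switch it off, and the slingshot phosphatases SSH1, SSH2 and SSH3 remove that phosphate and switch it on again. In dendritic spines this cycle is known to set actin turnover during growth and shrinkage of the spine. Transcript levels say nothing of the phosphorylation state of cofilin, which was not measured in these libraries.

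The promoters of the 3 members called for OL against Basal over both genotypes (*Cfl2*, *Ssh1* and *Limk1*) are given first, since the results below turn on them. Those of *Limk2* and *Ssh2* follow because they hold a searched motif. Each window runs from 250 bases before to 50 bases after the annotated start in RefSeq (GRCm38.p6), 5′ to 3′ on the strand of the gene, and capitals mark a motif match on either strand. Of 12 RefSeq windows of the 7 members, the window nearest the start of the gene model is printed for each of the 5 genes.
Cfl2 (chr12:54862828-54863127, minus strand): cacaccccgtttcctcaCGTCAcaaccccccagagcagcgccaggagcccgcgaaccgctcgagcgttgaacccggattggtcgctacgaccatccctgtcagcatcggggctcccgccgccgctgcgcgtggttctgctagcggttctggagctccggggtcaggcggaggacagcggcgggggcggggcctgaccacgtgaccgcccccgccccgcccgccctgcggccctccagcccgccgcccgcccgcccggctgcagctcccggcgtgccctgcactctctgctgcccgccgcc
Ssh1 (chr5:113993741-113994040, minus strand): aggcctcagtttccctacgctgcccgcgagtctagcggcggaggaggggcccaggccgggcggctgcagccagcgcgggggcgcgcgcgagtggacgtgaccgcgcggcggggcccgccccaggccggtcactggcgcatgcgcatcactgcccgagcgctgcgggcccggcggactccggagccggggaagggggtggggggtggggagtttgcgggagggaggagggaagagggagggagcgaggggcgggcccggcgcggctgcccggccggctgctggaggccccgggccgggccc
Limk1 (chr5:134688541-134688840, minus strand): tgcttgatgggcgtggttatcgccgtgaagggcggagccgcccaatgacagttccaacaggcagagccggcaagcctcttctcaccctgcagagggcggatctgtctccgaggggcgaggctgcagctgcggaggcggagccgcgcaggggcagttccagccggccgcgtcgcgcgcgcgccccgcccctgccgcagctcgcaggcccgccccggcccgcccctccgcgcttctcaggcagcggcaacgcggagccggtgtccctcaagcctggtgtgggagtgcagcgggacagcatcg
Limk2 (chr11:3409189-3409488, minus strand): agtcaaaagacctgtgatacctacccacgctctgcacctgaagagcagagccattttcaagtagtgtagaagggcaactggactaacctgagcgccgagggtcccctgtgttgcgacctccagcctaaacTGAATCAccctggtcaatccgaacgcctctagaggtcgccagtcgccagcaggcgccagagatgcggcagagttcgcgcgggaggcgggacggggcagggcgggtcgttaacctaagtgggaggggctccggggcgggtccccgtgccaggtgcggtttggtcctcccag
Ssh2 (chr11:77216175-77216474, plus strand): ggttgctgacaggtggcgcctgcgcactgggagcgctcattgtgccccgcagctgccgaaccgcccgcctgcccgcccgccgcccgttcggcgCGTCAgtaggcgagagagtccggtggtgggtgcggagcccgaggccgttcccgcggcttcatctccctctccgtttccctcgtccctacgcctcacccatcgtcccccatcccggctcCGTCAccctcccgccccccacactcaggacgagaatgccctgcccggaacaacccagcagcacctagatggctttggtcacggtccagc
The search covered TGACGTCA (the cyclic AMP response element), TGACG (which lies within it), TGANTCA (AP-1) and GCGTGGGCG (EGR) on both strands. TGACG occurred at 1 place in the *Cfl2* window, at position -233 from the start, and at 2 places in the *Ssh2* window, at -157 and -39, in each case as CGTCA on the printed strand. TGANTCA occurred at 1 place in *Limk2*, as TGAATCA at -120. The *Ssh1* and *Limk1* windows held none of these letters. Over all 32851 RefSeq windows of this length, 1.79% held TGACGTCA, 20.8% TGACG, 7.81% TGANTCA and 0.612% GCGTGGGCG, and a match describes the letters alone. The GC content of the printed windows ran from 62.3% in *Limk2* to 80% in *Ssh1*, with 75.3% in *Cfl2*, 72.7% in *Limk1* and 70% in *Ssh2*, against a median of 52.7% over all windows.

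Library depth over these genes was 29248557 to 37915576 reads. *Ccny* itself checked the labels: its level was 106.6 to 158.5 CPM (TMM-normalized read counts scaled to a common library size, back-computed from the deposited log2 values) in the 9 WT libraries and 74.0 to 95.8 CPM in the 9 KO libraries, without overlap, and the KO mean was 60.1% of the WT mean (limma, log2 fold change -0.72, SE 0.061, adjusted p = 3.31e-05). Transcript of the targeted gene was thus still counted in the KO libraries. All marker genes of CA1 pyramidal and dentate granule neurons were present, 7 of 7 for each. All 12 markers of the choroid plexus epithelium, a tissue next to the hippocampus, were present too. Their sum was 882 to 4462 CPM in WT_Basal, 1930 to 3373 in WT_OL, 45.7 to 8631 in WT_RL, 50.8 to 685 in KO_Basal, 2471 to 4764 in KO_OL and 1370 to 5145 in KO_RL, so in KO mice every trained library lay above the untrained ones. The part of this tissue in the KO training results was not tested. The correlation of this sum with the members lay between -0.27 for *Cfl2* and 0.31 for *Ssh1* over the 18 libraries. The libraries also differed in how their values moved with base composition. Exon GC here means the GC content of the longest annotated transcript of a gene. The GC slope of a library, the slope over genes of its log2 values relative to the gene means, in log2 units per 10 percentage points of exon GC, was -0.168 to -0.107 in WT_Basal and -0.14 to -0.112 in KO_Basal, but 0.0216 to 0.194 in WT_OL, -0.0104 to 0.118 in WT_RL, 0.046 to 0.113 in KO_OL and -0.000501 to 0.0973 in KO_RL. Every untrained library thus lay below every trained one, and training and this trend cannot be told apart. Each training result is therefore given also after a correction that removes from each library a smooth trend of its log2 values with exon GC. The length slope of a library, in log2 units per doubling of the longest transcript, differed as well. It was -0.0846 to -0.000836 in KO_Basal, 0.0157 to 0.0336 in KO_OL and 0.0231 to 0.124 in KO_RL. The WT groups overlapped, with -0.0326 to 0.00266 in WT_Basal, -0.195 to 0.069 in WT_OL and -0.06015 to 0.0846 in WT_RL. No fit corrected for transcript length, and its part in the training results was not tested.

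The members spanned a wide range of transcript abundance. Per kilobase of exon (GENCODE M21), the mean level over all 18 libraries was 275 ± 19.8 CPM per kb for *Cfl1* and 22.8 ± 5.03 for *Cfl2* (SD, n = 18). The LIM kinases followed with 16.6 ± 0.87 CPM per kb for *Limk2* and 6.06 ± 0.73 for *Limk1*, and the slingshots were lowest, with 4.28 ± 0.91 for *Ssh3*, 2.85 ± 0.46 for *Ssh2* and 1.26 ± 0.31 for *Ssh1*. *Cfl1* ranked at the 99.2 percentile of all genes by mean CPM and *Ssh1* at the 35.3 percentile. Neighbours in this order kept it in 18 of 18 libraries, except that *Ssh3* was above *Ssh2* in 17, and the ranges of *Cfl2* and *Limk2*, *Limk1* and *Ssh3*, and *Ssh3* and *Ssh2* overlapped between libraries. With the longest transcript as the length instead, *Cfl2* was above *Limk2* in only 6 of 18 libraries, so the order of these neighbours depends on the gene model. The plot of members by library shows that training separated *Cfl2* and *Ssh1* in both genotypes.

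**Figure D1:**
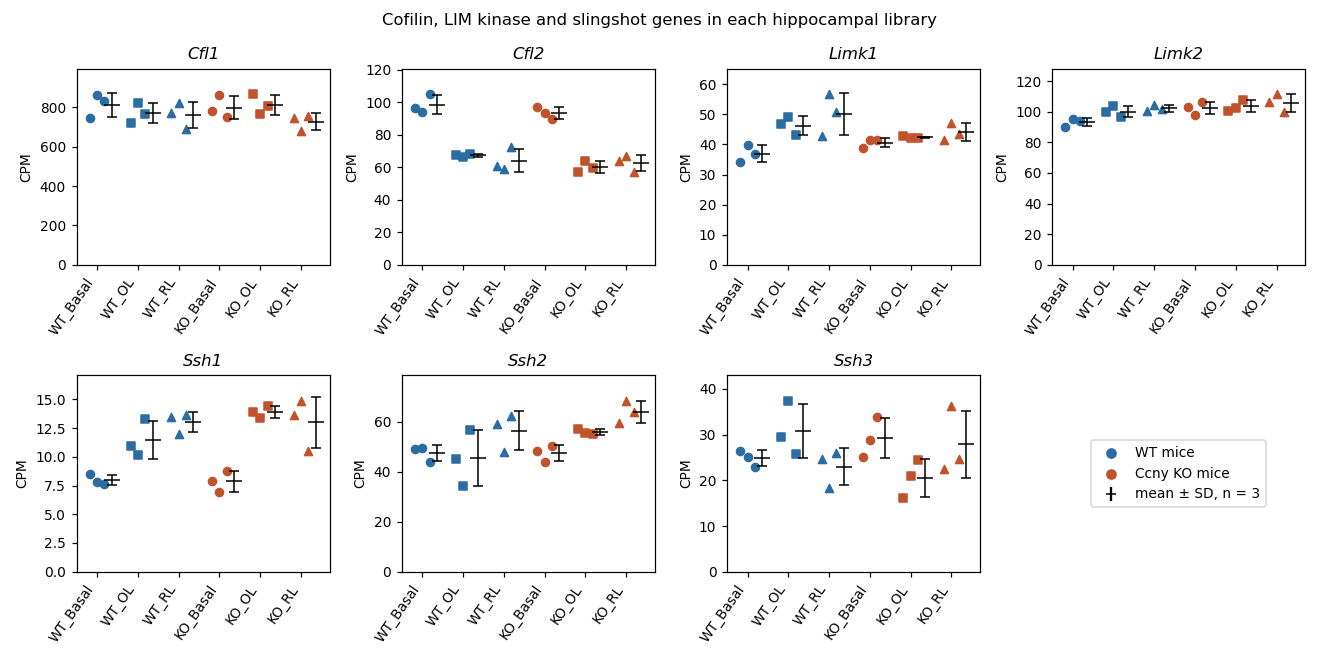
Level of each member in CPM (vertical axis, from 0) in the 18 libraries by group (horizontal axis), with circles for Basal, squares for OL and triangles for RL, WT in blue and *Ccny* KO in orange, and black bars for mean ± SD of 3 libraries. *Cfl2* lay at 89.6 CPM or more in all Basal libraries and at 72.5 CPM or less in all trained ones, while *Ssh1* lay at 8.79 CPM or less in Basal and at 10.1 CPM or more after training.

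The first question was whether training changed the transcripts of the cycle. After original learning, 3 of 7 members were called in WT mice (adjusted p under 0.05 in limma over all 15329 genes, of which 9.5% were called) and 2 of 7 in *Ccny* KO mice (23.5% of all genes called). After reversal learning, 3 of 7 members differed from Basal in WT mice (15.7% of all genes) and 3 of 7 in KO mice (23.6%). Over the mean of both genotypes, 3 of 7 were called for OL against Basal (28.6% of all genes) and 4 of 7 for RL against Basal (35.4%). The median log2 fold change of the members for OL against Basal over both genotypes was 0.06, beside -0.0028 for all genes, and the called members went in both directions. Groups without overlap were common: 28.3% of all genes for WT_OL and 48.8% for KO_OL against Basal (4 and 5 of 7 members). For RL against Basal the shares were 34.3% in WT mice and 45.3% in KO mice (4 and 3 of 7 members). No such share was counted for all trained against all untrained libraries.

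*Cfl1*, the cofilin that neurons use most, was at 744, 863 and 832 CPM in WT_Basal, 723, 824 and 765 in WT_OL and 769, 821 and 692 in WT_RL. The KO libraries gave 780, 866 and 752 CPM in KO_Basal, 867, 766 and 807 in KO_OL and 746, 682 and 758 in KO_RL. The ranges of the Basal and trained groups overlapped in both genotypes. The log2 fold change over both genotypes was -0.03 (SE 0.065, adjusted p = 0.808, limma) for OL against Basal and -0.11 (SE 0.065, adjusted p = 0.186) for RL against Basal, and the latter was -0.17 and called with the GC correction (adjusted p = 0.041, limma). Of the exon bases of *Cfl1* (chromosome 19, 5490455 to 5495201, plus strand), 16.5% overlap *Snx32* on the other strand, and the sources differ on whether the libraries kept strand, so reads there may belong to either gene.

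*Cfl2*, which is best known from muscle and made up 8.57% to 10.2% of cofilin CPM per kb in the Basal libraries, fell after training in both genotypes. It was at 96.6, 94.3 and 105 CPM in WT_Basal, 67.3, 66.5 and 68.2 in WT_OL and 60.9, 59.2 and 72.5 in WT_RL. In KO mice it was at 96.9, 93.2 and 89.6 CPM in KO_Basal, 56.8, 64 and 59.5 in KO_OL and 63.7, 66.7 and 57 in KO_RL. No trained library reached the lowest untrained one. In single comparisons of a trained group with Basal, 28.3% to 48.8% of all genes also showed no overlap. The mean level of WT_OL was 0.683 times that of WT_Basal, a log2 fold change of -0.54 (SE 0.081, adjusted p = 0.00109, limma), and KO_OL was at 0.645 times KO_Basal, a log2 fold change of -0.62 (SE 0.081, adjusted p = 9.17e-05). For RL against Basal the log2 fold change was -0.62 in WT mice (adjusted p = 0.000249, limma) and -0.57 in KO mice (adjusted p = 0.000181). The share of *Cfl2* in cofilin CPM per kb was 5.4% to 7.5% after original learning and 5.9% to 8.36% after reversal learning, so most cofilin transcript was *Cfl1* in every library. With the longest transcript as the length, the *Cfl2* share was 4.984% to 9.415% over all libraries.

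The fall of *Cfl2* moved with base composition. The longest transcript of *Cfl2* (chromosome 12, 54858809 to 54862877, minus strand) has 36.9% GC, at the 1.08 percentile of all genes. Over the 18 libraries the *Cfl2* level and the GC slope had r = -0.91, a value that includes the shift between groups, or -0.56 with group means removed. The 290 genes with a mean of at least 1 CPM and under 38% GC had a median log2 fold change of -0.43 for OL against Basal, beside -0.58 for *Cfl2*. After the GC correction the log2 fold change of *Cfl2* was -0.19 in WT mice (SE 0.068, adjusted p = 0.156, limma) and -0.19 in KO mice (SE 0.068, adjusted p = 0.0618) for OL against Basal, so that both calls were lost. For RL against Basal it was -0.25 in WT mice (adjusted p = 0.0358, limma) and -0.20 in KO mice (adjusted p = 0.0472), both called. With replicate number also in the fit, the KO_RL call was lost (-0.20, adjusted p = 0.0557, limma). With the GC correction alone, the means over both genotypes kept their calls in smaller size, with -0.19 for OL (SE 0.048, adjusted p = 0.0115, limma) and -0.23 for RL against Basal (SE 0.048, adjusted p = 0.00264). Whether the GC trend is technical or belongs to the tissue was not tested.

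**Figure D2:**
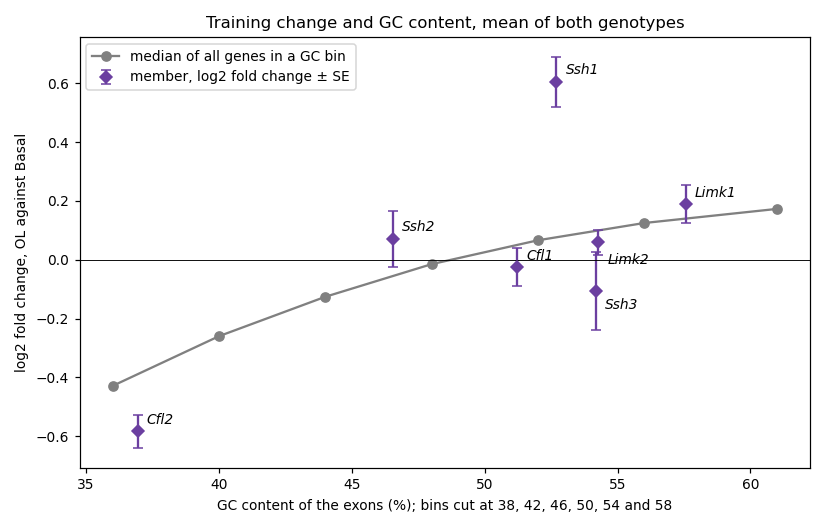
Log2 fold change of OL against Basal over both genotypes (vertical axis) against exon GC content in percent (horizontal axis), with gray points for the median of all genes of at least 1 CPM in a GC bin and purple diamonds for the members ± SE. The gray medians rose from -0.43 under 38% GC to 0.17 above 58%. *Cfl2* at -0.58 lay below the median of its bin, and *Ssh1* at 0.61 lay above the 0.07 of its bin.

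*Limk1*, the LIM kinase best studied at synapses, was higher after training in WT mice. It was at 34.2, 39.8 and 36.9 CPM in WT_Basal, 46.8, 49 and 43 in WT_OL and 42.8, 56.7 and 50.9 in WT_RL, with every trained WT library above every untrained one. Of all genes, 28.3% did not overlap for WT_OL and 34.3% for WT_RL against WT_Basal. KO mice had 38.8, 41.5 and 41.3 CPM in KO_Basal, 42.7, 42.2 and 42.2 in KO_OL and 41.5, 47.3 and 43.6 in KO_RL, and the RL range slightly overlapped that of Basal. The mean of WT_OL was 1.25 times that of WT_Basal (log2 fold change 0.32, SE 0.09, adjusted p = 0.0372, limma), and that of WT_RL 1.36 times (0.42, SE 0.09, adjusted p = 0.00572). In KO mice the log2 fold change was 0.06 for OL (SE 0.09, adjusted p = 0.657, limma) and 0.12 for RL against Basal (SE 0.09, adjusted p = 0.367).

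The genotypes were not shown to differ in the *Limk1* change. The KO minus WT difference was -0.25 for OL against Basal (SE 0.128, unadjusted p = 0.0636, adjusted p = 0.405, limma) and -0.30 for RL against Basal (SE 0.128, unadjusted p = 0.0295, adjusted p = 0.908). *Limk1* (chromosome 5, 134656039 to 134688598, minus strand) has 57.6% GC, and with the GC correction its change in WT_OL was 0.15 (adjusted p = 0.375, limma) and in KO_OL -0.06, while that in WT_RL was 0.30 and still called (adjusted p = 0.0369). Without WT_Basal replicate 1 or 3 or WT_OL replicate 1 or 2 the WT_OL value was 0.26, 0.32, 0.31 and 0.28 and no longer called. Fitted on the libraries of each comparison alone, the *Limk1* calls in WT_OL (adjusted p = 0.142, limma) and WT_RL (adjusted p = 0.0525) were both lost. The log2 fold change over both genotypes was 0.19 for OL (SE 0.064, adjusted p = 0.0353, limma), lost with the GC correction at 0.05 and without any single library other than WT_Basal replicate 2 and WT_OL replicate 3 (0.16 to 0.20, adjusted p from 0.0501 to 0.0942). It was 0.27 for RL against Basal (SE 0.064, adjusted p = 0.0038, limma), which held without any library and was 0.15 with the GC correction (adjusted p = 0.06).

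Astrocyte markers moved along with *Limk1*. All 7 markers were present, and their summed level was 5115 to 5594 CPM in WT_Basal, 6380 to 7943 in WT_OL, 6070 to 7535 in WT_RL, 5448 to 5614 in KO_Basal, 5818 to 6055 in KO_OL and 6201 to 6405 in KO_RL. Over the 18 libraries this sum had r = -0.72 with *Cfl2* and r = 0.82 with *Limk1*, and the points share training, genotype and the GC slope, with which *Limk1* had r = 0.66. The part of either in the *Limk1* and *Cfl2* results was not tested, and in such bulk tissue more cells of a type and more RNA per cell cannot be told apart.

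*Limk2*, the second LIM kinase, is the more abundant of the pair, and *Limk1* made up only 24.3% to 31.6% of LIM kinase CPM per kb. With the longest transcript as the length, a choice made after seeing the data, the *Limk1* share was 29.45% to 37.52%. *Limk2* was at 90.1, 95.3 and 93.9 CPM in WT_Basal, 100.2, 104 and 96.4 in WT_OL and 100.2, 105 and 102 in WT_RL. In KO mice it was at 103, 98 and 106 CPM in KO_Basal, 100.2, 102 and 108 in KO_OL and 106, 111 and 99.7 in KO_RL. The trained WT libraries all lay above the untrained ones (28.3% of all genes did not overlap for OL and 34.3% for RL), and the KO groups overlapped. The log2 fold change over both genotypes was 0.06 for OL (SE 0.042, adjusted p = 0.313, limma) and 0.09 for RL against Basal (SE 0.042, adjusted p = 0.11), and with the GC correction these turned to -0.04 and -0.0030. With CPM floored at 1 the value for RL was called (0.09, adjusted p = 0.0446, limma).

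*Ssh1*, the best known slingshot and the least abundant member (220 to 513 reads per library), rose with training in both genotypes. It was at 8.49, 7.83 and 7.67 CPM in WT_Basal, 10.9, 10.1 and 13.3 in WT_OL and 13.5, 12 and 13.6 in WT_RL. In KO mice it was at 7.88, 6.96 and 8.79 CPM in KO_Basal, 13.9, 13.4 and 14.4 in KO_OL and 13.6, 14.8 and 10.5 in KO_RL. All 12 trained libraries lay above all 6 untrained ones. A lack of overlap with Basal was found for 28.3% to 48.8% of all genes in single comparisons of a trained group. WT_OL was at 1.43 times WT_Basal (log2 fold change 0.46, SE 0.12, adjusted p = 0.0241, limma) and KO_OL at 1.76 times KO_Basal (0.75, SE 0.12, adjusted p = 0.000452). For RL against Basal the log2 fold change was 0.64 in WT mice (adjusted p = 0.00259, limma) and 0.65 in KO mice (adjusted p = 0.00134).

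For OL against Basal the *Ssh1* change lay above the median change of genes with similar GC content. The spread of those genes around their median was not computed, and the part of base composition in the *Ssh1* result was not tested. The longest transcript of *Ssh1* (chromosome 5, 113937094 to 113993894, minus strand) has 52.7% GC. The genes of 50% to 54% GC had a median log2 fold change of 0.07 for OL against Basal, beside 0.61 for *Ssh1* over both genotypes (SE 0.085, adjusted p = 7.85e-05, limma). With the GC correction the value over both genotypes was 0.53 (SE 0.09, adjusted p = 0.00099, limma), that of KO_OL 0.67 (adjusted p = 0.00334) and that of WT_OL 0.38 (adjusted p = 0.132), so the call was lost in WT_OL alone. The WT_OL call was also lost without WT_Basal replicate 1 (0.50, adjusted p = 0.0508, limma), WT_Basal replicate 2 (0.45, adjusted p = 0.0689), WT_Basal replicate 3 (0.43, adjusted p = 0.0928) or WT_OL replicate 3 (0.36, adjusted p = 0.0624), and in a fit on the WT_Basal and WT_OL libraries alone (adjusted p = 0.112). The KO minus WT difference for OL against Basal was 0.29 (SE 0.17, adjusted p = 0.441, limma), so a difference between genotypes in the rise was not shown. Over the 18 libraries *Ssh1* had r = 0.71 with the GC slope, or -0.49 with group means removed. It had r = -0.67 with the summed microglia markers, 0.51 with astrocyte markers and -0.49 with endothelial markers. The microglia sum was 497 to 544 CPM in KO_Basal and 428 to 455 in KO_OL, without overlap, but 389 to 501 in KO_RL, which overlapped KO_Basal. In WT mice it was 455 to 505 CPM in WT_Basal, 427 to 559 in WT_OL and 429 to 506 in WT_RL, all with overlap. The part of these cells in the *Ssh1* result was not tested.

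**Figure D3:**
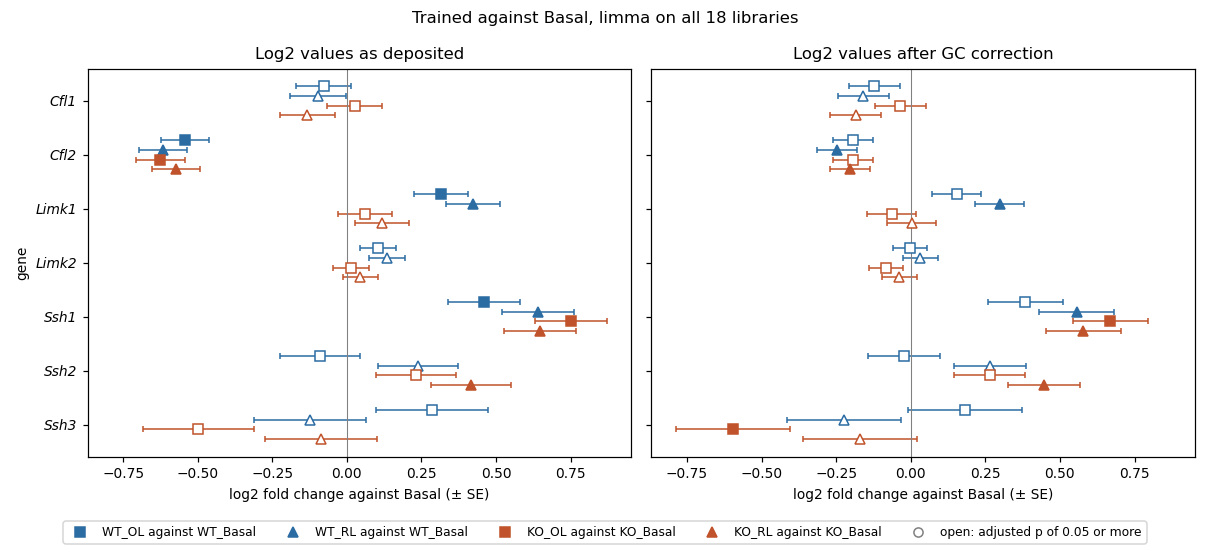
Log2 fold change against Basal ± SE (horizontal axis) of each member (vertical axis) in 4 comparisons by limma, on the log2 values as deposited (left) and after the GC correction (right), with filled symbols for an adjusted p under 0.05. The *Ssh1* values moved little between the panels, though WT_OL lost its filled symbol, those of *Cfl2* came closer to 0, and *Limk1* kept a filled symbol only for WT_RL.

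*Ssh2* was higher after reversal learning. It was at 49, 49.7 and 44 CPM in WT_Basal, 45.1, 34.5 and 56.9 in WT_OL and 59.3, 47.9 and 62.4 in WT_RL. The KO values were 48.4, 44.2 and 50.2 CPM in KO_Basal, 57.2, 55.5 and 55.2 in KO_OL and 59.5, 68.4 and 63.8 in KO_RL. The KO groups did not overlap each other, whereas WT_OL spread widely. Its lowest value was in replicate 2, the library with the highest GC slope and the lowest length slope (-0.195). The longest transcript of *Ssh2* has 9178 bases, and the part of transcript length in the *Ssh2* values was not tested. Of all genes, 48.8% did not overlap in KO_OL and 45.3% in KO_RL against KO_Basal, and 13.2% in KO_RL against KO_OL. KO_RL was at 1.34 times KO_Basal (log2 fold change 0.42, SE 0.134, adjusted p = 0.0336, limma), a call that was lost without KO_Basal replicate 1 (0.43, adjusted p = 0.0786), KO_Basal replicate 2 (0.37, adjusted p = 0.117), KO_RL replicate 2 (0.37, adjusted p = 0.103) or KO_RL replicate 3 (0.42, adjusted p = 0.0826). For KO_OL against KO_Basal, *Ssh2* was not called in the fit over all libraries but was in a fit on those libraries alone (0.23, adjusted p = 0.0209, limma). In that fit 34.5% of all genes were called. Of the 6 fits without 1 library of this comparison, 0 called *Ssh2* (adjusted p from 0.234 to 0.452, limma). In WT mice the RL value was 0.24 (SE 0.134, adjusted p = 0.251, limma), and over both genotypes RL against Basal was 0.33 (SE 0.095, adjusted p = 0.0131), which held without any library and with the GC correction (0.36, adjusted p = 0.00558). *Ssh2* (chromosome 11, 77216287 to 77460220, plus strand) had r = -0.78 with the summed microglia markers, -0.71 with endothelial markers and 0.69 with dentate granule markers over the 18 libraries, and with group means removed it had r = -0.77 with the GC slope. All 8 microglia markers were present, with sums of 455 to 505 CPM in WT_Basal, 427 to 559 in WT_OL, 429 to 506 in WT_RL, 497 to 544 in KO_Basal, 428 to 455 in KO_OL and 389 to 501 in KO_RL, and their part in the *Ssh2* result was not tested.

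*Ssh3*, the slingshot whose action on cofilin is held to be weakest, showed opposite values in the genotypes after original learning. It was at 26.5, 25.1 and 23 CPM in WT_Basal, 29.5, 37.3 and 25.7 in WT_OL and 24.7, 18.3 and 25.9 in WT_RL. In KO mice it was at 25, 28.7 and 33.9 CPM in KO_Basal, 16.2, 20.9 and 24.5 in KO_OL and 22.6, 36.2 and 24.7 in KO_RL. The KO_OL libraries lay below all KO_Basal and all WT_OL ones, and the WT_OL range overlapped WT_Basal. Of all genes, 48.8% did not overlap for KO_OL against KO_Basal and 16.5% for KO_OL against WT_OL. As deposited, the KO_OL value against KO_Basal was -0.50 and not called (adjusted p = 0.0643, limma), and 4 of 17 alternative fits called it. With the GC correction it was -0.59 (adjusted p = 0.0456, limma), where 15.6% of all genes were called. On the KO_Basal and KO_OL libraries alone it was -0.50 (adjusted p = 0.0274, limma, 34.5% of all genes called). Library weights gave -0.43 (adjusted p = 0.018, limma, 42.1% of all genes called). Without any 1 library the value ran from -0.63 to -0.35 (adjusted p from 0.0489 to 0.253, limma). Of these 6 fits only 1 gave a call, the fit without KO_OL replicate 3 (-0.63). The KO minus WT difference for RL against OL was 0.82 (SE 0.265, unadjusted p = 0.00676, adjusted p = 0.554, limma), opposite in sign to that for OL against Basal, -0.78 (unadjusted p = 0.00902, adjusted p = 0.388). These differences share the OL libraries, and neither passed the adjustment.

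The makeup of the slingshot transcripts was compared as shares, which were not tested. *Ssh1* made up 11.4% to 12.3% of slingshot CPM per kb in WT_Basal and 9.92% to 11.6% in KO_Basal. It made up 12.4% to 17% in WT_OL, 16.7% to 19.4% in WT_RL, 18.8% to 21.3% in KO_OL and 13.6% to 18.1% in KO_RL. These shares depend on the length that divides CPM: with the longest transcript, a choice made after seeing the data, the mean *Ssh1* share over the libraries was 9.44% in place of 15.0%. The *Ssh1* share then ran up to 7.64% in WT_Basal and 7.21% in KO_Basal and from 7.98% in WT_OL and 8.38% in KO_RL, so the trained libraries still lay above the untrained ones. The *Ssh3* share was 53.6% to 60.1% over the Basal libraries and ran from 36.5% in a KO_OL library to 67.2% in a WT_OL library. The summed level of LIM kinases was 2.2 to 3.61 times that of slingshots over all libraries. Group means were 2.71 in WT_Basal, 2.6 in WT_OL, 2.92 in WT_RL, 2.73 in KO_Basal, 2.88 in KO_OL and 2.51 in KO_RL. The SD within a group ran from 0.109 in WT_OL to 0.6 in WT_RL (n = 3), and differences between groups in this ratio were not tested.

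**Figure D4:**
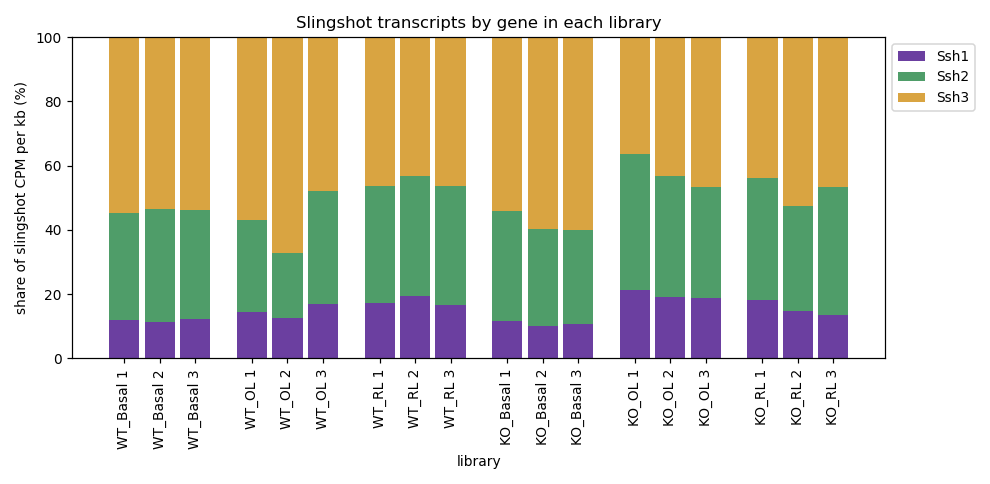
Share of *Ssh1*, *Ssh2* and *Ssh3* in the summed slingshot CPM per kb (vertical axis, percent) in each of the 18 libraries (horizontal axis). The purple *Ssh1* part was 12.3% or less in each Basal library and 12.4% or more in each trained one.

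The second question was whether reversal learning differed from original learning. No member was called in WT_RL against WT_OL (0 of 7, with 0.261% of all genes called), in KO_RL against KO_OL (0 of 7, 0.0196% of all genes) or over the mean of both genotypes (0 of 7, 0.352% of all genes). At an unadjusted p under 0.05 in limma, 2 members passed in WT mice (*Ssh2* and *Ssh3*, with 16.4% of all genes passing), 1 in KO mice (*Ssh3*, 4.81% of all genes) and 1 over both genotypes (*Ssh2*, 11.1% of all genes), and limma voom on the recovered reads called 0 in each. The *Ssh2* value over both genotypes was 0.26 (SE 0.095, adjusted p = 0.332, limma), and it was called without WT_OL replicate 3 (0.34, adjusted p = 0.0346), where 3.3% of all genes were called. Without that library 1 member, *Ssh2*, was also called in WT_RL against WT_OL (adjusted p = 0.0166, limma), and so were 13.3% of all genes.

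The third question was whether loss of *Ccny* changed the members. In untrained mice 0 of 7 were called (0.0196% of all genes), after original learning 0 of 7 (0.0652%), after reversal learning 0 of 7 (0% of all genes) and over the mean of training states 0 of 7 (0.0326%). The KO minus WT differences in a training change gave 0 of 7 for OL against Basal (0% of all genes), for RL against OL (0%) and for RL against Basal (0%). At an unadjusted p under 0.05 in limma, 1 member passed in untrained mice (*Limk2*, with 4% of all genes passing), 3 after original learning (*Ssh1*, *Ssh2* and *Ssh3*, 18% of all genes), 0 after reversal learning (4.93%) and 2 over the mean of training states (*Limk2* and *Ssh2*, 8.36%). In the differences 1 member passed each time, *Ssh3* for OL against Basal (12.4% of all genes) and for RL against OL (7.98%) and *Limk1* for RL against Basal (4.99%). Limma voom called 0 members in each of these 7 comparisons.

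After original learning the KO minus WT values were -0.57 for *Ssh3* (unadjusted p = 0.0078, adjusted p = 0.185, limma), 0.32 for *Ssh2* (unadjusted p = 0.0291, adjusted p = 0.234), 0.27 for *Ssh1* (unadjusted p = 0.0417, adjusted p = 0.26) and -0.16 for *Cfl2* (adjusted p = 0.297). Without WT_OL replicate 3, *Ssh2* (0.49, adjusted p = 0.0147, limma) and *Ssh3* (-0.69, adjusted p = 0.0335) were called, and so were 16.5% of all genes. In untrained mice *Limk2* was 0.14 higher on the log2 scale in KO mice (SE 0.06, adjusted p = 0.994, limma). No KO_Basal library lay below a WT_Basal one, and 14.7% of all genes likewise showed no overlap, in either direction. Over the mean of training states *Ssh2* was at 0.17 (SE 0.077, adjusted p = 0.592, limma) and *Cfl2* at -0.09 (SE 0.047, adjusted p = 0.627).

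Other regulators of cofilin were read from a list of 9 genes, all of them measured, for OL against Basal over both genotypes, where 28.6% of all genes were called. Of the 9, 2 were higher, 3 lower and 4 not called, with a median log2 fold change of -0.0045 beside -0.0028 for all genes. The phosphatase catalytic subunits *Ppp1cb* (log2 fold change -0.61, SE 0.066, adjusted p = 8.09e-06, limma), *Ppp2cb* (-0.27, adjusted p = 0.000404) and *Ppp2ca* (-0.18, adjusted p = 0.0103), members of the families that can also dephosphorylate cofilin, fell. *Nisch*, which encodes the LIMK-binding protein nischarin, rose (0.36, SE 0.058, adjusted p = 0.000267), as did *Tesk1*, a kinase that phosphorylates cofilin (0.21, SE 0.052, adjusted p = 0.00577). *Ppp1cb* went from 439 to 454 CPM over the 6 Basal libraries (median 442) to 260 to 336 over the 12 trained ones (median 297), without overlap. Single comparisons of a trained group with Basal separated 28.3% to 48.8% of all genes in this way. With the GC correction, under which 16.6% of all genes were called, *Ppp1cb* (-0.37), *Ppp2cb* (-0.38) and *Nisch* (0.21) kept their calls, and *Ppp2ca* (-0.08, adjusted p = 0.267, limma) and *Tesk1* (0.03, adjusted p = 0.715) lost theirs.

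Of 28 regulators of LIM kinases and slingshots, 4 were higher, 5 lower and 19 not called in the same comparison (28.6% of all genes called). Their median log2 fold change was -0.05. All 3 calcineurin genes of the list were among the lower ones: *Ppp3ca* (log2 fold change -0.57, SE 0.113, adjusted p = 0.00132, limma), *Ppp3cb* (-0.42, SE 0.085, adjusted p = 0.00173) and *Ppp3r1* (-0.36, SE 0.077, adjusted p = 0.00209), which encode catalytic and regulatory subunits of the calcium-dependent phosphatase that activates slingshot. *Ppp3ca* was at 1776 to 2460 CPM over the Basal libraries (median 2142) and at 928 to 1806 over the trained ones (median 1609), with overlap. *Cdc42*, a small GTPase upstream of PAK and LIM kinases, fell (-0.25, SE 0.046, adjusted p = 0.000786), and *Cdc42bpb*, the kinase MRCKβ that phosphorylates LIM kinases, rose (0.29, SE 0.046, adjusted p = 0.00018). With the GC correction *Ppp3ca* kept its call (-0.49, adjusted p = 0.00484, limma), whereas *Ppp3cb* (-0.14, adjusted p = 0.179), *Ppp3r1* (-0.15, adjusted p = 0.147), *Cdc42* (-0.07, adjusted p = 0.366) and *Cdc42bpb* (0.15, adjusted p = 0.0747) lost theirs, and of 28 genes, beside the 16.6% of all genes, 2 were then higher (*Prkd2* and *Cdc42bpa*) and 2 lower (*Ppp3ca* and *Rac3*), of which *Prkd2*, *Cdc42bpa* and *Rac3* are named after their values were seen.

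Of 18 partners and relatives of cofilin, 5 were higher, 4 lower and 9 not called for OL against Basal over both genotypes. In that comparison 28.6% of all genes were called. The median log2 fold change of the 18 was 0.12. The profilins, which load actin monomers for growth, moved in opposite directions: *Pfn2*, the neuronal form, fell (log2 fold change -0.45, SE 0.055, adjusted p = 1.98e-05, limma) and *Pfn1* rose (0.33, SE 0.064, adjusted p = 0.00127). *Pfn2* was at 614 to 667 CPM over the Basal libraries and at 423 to 501 over the trained ones, without overlap. Of all genes, 28.3% to 48.8% likewise showed no overlap in single comparisons of a trained group with Basal. *Gmfb*, a relative of cofilin that acts on Arp2/3 branches, fell (-0.44, SE 0.078, adjusted p = 0.000588), while *Coro1c*, a coronin (0.25, SE 0.066, adjusted p = 0.00816), and *Dbnl*, an actin-binding adaptor (0.17, SE 0.053, adjusted p = 0.0207), rose. With the GC correction, under which 16.6% of all genes were called, *Pfn2* (-0.52), *Pfn1* (0.17) and *Coro1c* (0.20) kept their calls. *Gmfb* (-0.14, adjusted p = 0.0961, limma) and *Dbnl* (0.04, adjusted p = 0.605) lost theirs. *Dbnl* also lost its call without WT_Basal replicate 3 (0.16), KO_Basal replicate 3 (0.16) or KO_OL replicate 1 (0.16). In none of the 3 lists was a gene called between genotypes in any training state, in the mean over training states or in a KO minus WT difference. In these comparisons only 0% to 0.0652% of all genes were called, so few calls could be found in lists of this size.

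Among the members, *Cfl2* and *Ssh1* were the most opposed, with r = -0.85 over the 18 libraries, and with group means removed the value was 0.37. *Ssh1* and *Ssh2* had r = 0.64, and 0.66 with group means removed. Among the 10214 genes with a mean of at least 10 CPM, *Cfl2* was most like *Vma21* (r = 0.98) and *Tmed7* (0.98), genes that also have low GC content (37.3% and 42%). *Ssh1* was most like *Dpysl2* (0.97) and *Plekhm1* (0.97), and *Limk1* like *Zfp385a* (0.91) and *Wasf3* (0.87). *Ssh2* and *Dync1h1*, a gene among its closest, had r = 0.97. *Ssh3* was most like *Tle2* (0.94) and *Snapc4* (0.93), *Cfl1* like *Mkrn2* (0.85) and *Lhpp* (0.84), and *Limk2* like *Rnf31* (0.82) and *Tmem214* (0.78). These correlations are descriptions over 18 libraries that share training, genotype and base composition.

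**Figure D5:**
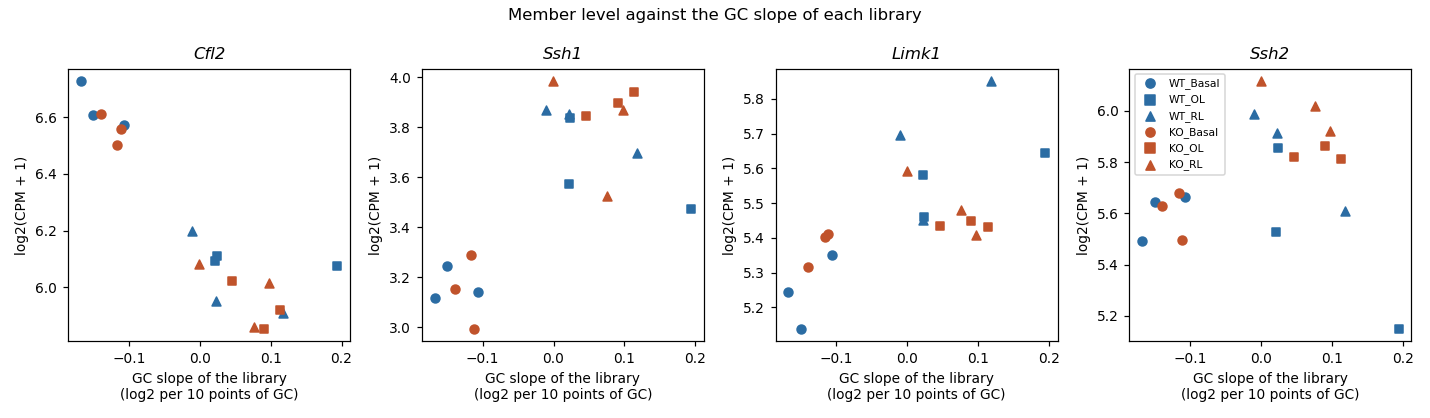
Level of *Cfl2*, *Ssh1*, *Limk1* and *Ssh2* as log2(CPM + 1) (vertical axis) against the GC slope of each of the 18 libraries in log2 units per 10 percentage points of GC (horizontal axis), with symbols by group. The Basal circles sit at the left in each panel, below -0.1, and *Cfl2* had r = -0.91, *Ssh1* 0.71, *Limk1* 0.66 and *Ssh2* 0.11 with the slope, or -0.56, -0.49, 0.37 and -0.77 in that order with group means removed.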

How the data were processed

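Hippocampal RNA was sequenced in 18 libraries, and the authors aligned reads with STAR 2.5.1 to mm10 and normalized them with TMM in edgeR 3.12.1 (R 3.3.0). The deposited values are log2 CPM per gene. The study's methods describe CPM floored at 1, but the values are log2(CPM + 1): on that scale 100% of values were whole reads (tolerance 0.1 read). They were tested as deposited. The labels name a stranded mRNA kit and the methods an RNA kit without that word.

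Group means were fitted over all 18 libraries with limma 3.58.1 (R 4.3.3; variance trend, 12 residual degrees of freedom, Benjamini-Hochberg over 15329 genes, threshold 0.05), after the code was tested on simulated data. WT_OL and WT_RL share WT_Basal as control, and KO_OL and KO_RL share KO_Basal. CPM was back-computed from log2 values, and fold changes are on the log2(CPM + 1) scale, which understates changes of low genes. Exon GC (of the longest transcript) and exon length (of all exons of a gene merged) came from GENCODE M21. For GC, 14769 symbols matched directly and 455 by synonym. The GC correction was a loess fit per library on genes with a mean of at least 1 CPM. Depth was 29248557 to 37915576 recovered reads. Python 3.11.15 with numpy 2.4.6, pandas 2.3.3 and matplotlib 3.10.9 made the summaries and plots.

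Named genes were all 7 members, their closest 2 genes by Pearson correlation, over genes with a mean of at least 10 CPM, *Ccny*, and per pathway list at most the 5 genes with the smallest p among those called for OL against Basal over both genotypes. One gene that this rule names is not reported here. The members and gene lists were chosen with earlier results of these data known. Alternatives were another pseudocount, a floor at 1 CPM, a filter on low values, other size factors, fits without the variance trend, with library weights, on fewer libraries or with a replicate block, voom on recovered reads, and the GC correction.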

Additional observations from a re-analysis of the deposited data

How the results depend on the processing

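Of 1203 values recomputed for 57 reported fold changes, 1120 kept their direction and side of the threshold, 56 lost a call, 20 gained 1 and 7 changed sign. The sign changes were *Limk1* in KO_OL against KO_Basal (-0.063) and *Limk2* over both genotypes for OL (-0.043) and RL (-0.0030) against Basal, each with the GC correction with or without the replicate block, and *Cfl1* for OL against Basal without KO_Basal replicate 2 (-0.057 to 0.0042 without any 1 library). For WT_OL against WT_Basal, where 3 members and 9.5% of all genes were called, 1 member was called on the libraries of the comparison only (0.483% of all genes), 6 with library weights (45.9%), 0 with the GC correction (2.44%), 0 with the replicate block and GC correction (2.13%), and 1 to 2 without any 1 library. For KO_OL against KO_Basal (2 called, 23.5% of all genes) the counts were 4 on its own libraries (34.5%), 4 with library weights (42.1%) and 1 with the replicate block and GC correction (16%). With library weights 1 member was called in WT_RL against WT_OL (16.1% of all genes), 6 in KO_OL against WT_OL (44.9%), 1 in RL against OL over both genotypes (13.1%) and 4 in the KO minus WT difference for OL against Basal (25.5%), beside 0 in each. Leaving out 1 library gave 0 to 1, 0 to 2 and 0 to 1 for the first 3 of these comparisons, the higher count without WT_OL replicate 3, where 13.3%, 16.5% and 3.3% of all genes were called. The weights did not converge and gave 1 WT_OL library a weight of 301. The replicate block alone changed no count of called members (3 and 2 for OL against Basal in WT and KO mice). A pairing of the libraries by replicate number was not shown: over 45 same-numbered pairs r ran from -0.64 to 0.55, and 12 were above 0.1. By mean r, 10 of 18 libraries were closer to libraries of their own number than to others. The cause of these changes was not tested. With 220 to 513 reads per library, *Ssh1* had the lowest depth of the members.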
